A study of Mus musculus with 8 samples.

Results

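The mRNAs of the histones, the proteins around which DNA is wound, were followed in poly(A) RNA of cultured mouse hippocampal neurons. The set took every entry of the gene table whose symbol begins with Hist1h to Hist4h, H2af, H3f3 or H1f and whose mean over the 8 libraries was at least 1 TPM (a transcript's share of its library, corrected for transcript length). Of 80 histone entries, 67 passed and were tested among 13681 genes: 57 Hist genes and 10 variant genes. In the study, neurons from mouse embryos at day 19 were infected at 13 to 15 days in vitro with a lentivirus whose hairpin was either scrambled or directed at Cnot7, a deadenylase that shortens poly(A) tails, and were harvested at 17 to 19 days in vitro. Every group therefore carried a lentivirus, and the labels name no hairpin sequence, mouse strain or number of cultures. RNA was bound to poly(U) agarose and either eluted whole at 75 °C (total) or first washed at 50 °C, which per the labels removes tails under 50 nucleotides, and then eluted at 75 °C (long tails). The 4 groups, scrambled total, knockdown total, scrambled long tails and knockdown long tails, had 2 libraries each.

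Most histone mRNAs of animals are made in S phase, from clustered genes without introns, and end in a stem-loop in place of a poly(A) tail. The stem-loop is bound by SLBP, which guides the cut at the 3′ end, translation and decay when DNA synthesis stops. The variants, such as H3.3 and H2A.Z, come from scattered genes, mostly with introns, have poly(A) tails and are made throughout the cell cycle and in cells that no longer divide, neurons among them. Some replication-dependent genes can also make a longer, polyadenylated transcript, as is known from differentiated cells.

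The ends of the annotated transcripts (GENCODE M21, GRCm38, the build also called mm10) were read to see which members carry which kind of end. The stem-loop was searched as GGNNCTNTTNAGNNCC, on the sense strand of transcripts only, by its letters and with no filter on pairing. The match recorded for each member had 6 paired bases on either side of a loop of 4. Pairing was not looked at in genes outside the set. A poly(A) signal was AATAAA or ATTAAA within the last 40 bases of an annotated transcript. The following ends are shown because they stand for 3 kinds of annotated end: those of variants, of Hist genes with both a stem-loop and a poly(A) signal, and of Hist genes with a stem-loop only. Hist2h2aa2 is of the last kind by its end, but its values stood apart from the others of that kind. Capitals mark the stem-loop or the signal, T stands for U, and coordinates are those of the capitals.

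H3f3a, poly(A) signal, chr1:180800848-180800853, minus strand: aaaaatAATAAAagtaccaatagaagaa
H1f0, poly(A) signal, chr15:79030483-79030488, plus strand: ctttaaAATAAAactggaaaggaaaaaa
H2afx, stem-loop, chr9:44335240-44335255, plus strand: acaaaGGCCCTTTTAAGGGCCaccacctcc
H2afx, poly(A) signal, chr9:44336043-44336048, plus strand: aattttATTAAAggatcgtttggttttgtt
Hist1h1c, stem-loop, chr13:23739512-23739527, plus strand: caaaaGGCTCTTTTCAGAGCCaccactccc
Hist1h1c, poly(A) signal, chr13:23740342-23740347, plus strand: gcttctAATAAAaagcgtttagttttcatt
Hist3h2a, stem-loop, chr11:58955172-58955187, plus strand: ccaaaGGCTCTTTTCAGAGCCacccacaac
Hist3h2a, poly(A) signal, chr11:58956797-58956802, plus strand: atgcccAATAAAataagagtacgtgtataa
Hist1h4d, stem-loop, chr13:23581950-23581965, plus strand: ccaaaGGCCCTTTTCAGGGCCactaccttc
Hist1h2bg, stem-loop, chr13:23571843-23571858, plus strand: ccaaaGGCTCTTTTCAGAGCCacccatact
Hist1h2ao, stem-loop, chr13:21810898-21810913, plus strand: aaaaaGGCTCTTTTCAGAGCCatccacagt
Hist2h2aa2, stem-loop, chr3:96239784-96239799, minus strand: aaaaaGGCTCTTTTCAGAGCCacccactga

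These stem-loops lie in annotated 3′ UTRs. That of Hist1h2ao is followed by 31 bases to the end of the longest annotated transcript with it. Of the others printed with a stem-loop only, that of Hist2h2aa2 is followed by 35, that of Hist1h2bg by 155 and that of Hist1h4d by 770. Hist1h1d, which is of the same kind but not printed, has 4884. With both ends, that of Hist1h1c is followed by 840 and that of Hist3h2a by 1643. The letters were present in 38 of the 57 Hist genes and in 1 of the 10 variants, H2afx, the H2A whose phosphorylated form marks DNA breaks. Among all 21877 annotated protein-coding genes, 137 (0.626%) held them. The commonest form, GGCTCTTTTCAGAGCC, was in 22 Hist genes, none of them of the H4 family, and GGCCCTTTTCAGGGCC was in 6, all of them H4 genes. An annotated end with a poly(A) signal was present in 9 of the 10 variants, all but H3f3b (mean of 256.5 TPM). It was also present in 14 Hist genes, of which 11 had the stem-loop too. The other 43 Hist genes had no such end, 27 of them with a stem-loop and 16 with neither. A gene with no match has only these letters missing from the annotated transcripts, and which annotation lay behind the deposited values is unknown here.

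The Hist genes and the variants also differed in layout. Of the Hist genes, 46 were on chromosome 13, 7 on chromosome 3, 3 on chromosome 11 and 1 on chromosome 6, while the 10 variants lay on 8 chromosomes. A single exon was annotated for 54 of the 57 Hist genes. The median longest transcript was 508 nucleotides for Hist genes without a poly(A) end, 1595 for those with one and 1943 for variants. Hist genes resemble each other closely: a median of 49.3% of their stretches of 50 bases also occurred in another gene, against 4.15% in variants, so values of single Hist genes are uncertain where reads could be split between copies. The split by poly(A) end was made after the values had been seen and is used as a description only.

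The targeted mRNA was lower in the libraries labelled knockdown: Cnot7 stood at 42 and 36 TPM in scrambled total, 12 and 16 in knockdown total, 28 and 31 in scrambled long-tail and 9 and 11 in knockdown long-tail libraries. Markers of neurons (10 of 10 tested), astrocytes (8 of 8) and the oligodendrocyte lineage (10 of 10) were present. They summed to 5022 to 7364, 3125 to 5790 and 992 to 1928 TPM per library. The astrocyte marker Gfap, at a mean of 2140.875 TPM, was above every neuronal marker, the highest of which was Snap25 at 1315.625. Of 6 microglial markers only C1qa was tested, at a mean of 1.75 TPM, with Cx3cr1, Aif1, Itgam and Tmem119 listed at 0. Of 5 endothelial and mural markers Kdr, Pdgfrb and Rgs5 were tested, at means of 13.125, 10.25 and 4.125 TPM, with Cldn5 and Pecam1 listed at 0. In bulk RNA, fewer cells of a type and less RNA per cell cannot be told apart. Markers of dividing cells were present, with 21 of 22 tested and their sum between 299 and 402 TPM per library. The ribosomal RNA precursor Rn45s took 2.898% of TPM in knockdown long-tail library 2 and between 6.07% and 18.559% in the others. For the histones, 2 libraries stood apart: knockdown total library 2 and knockdown long-tail library 2. Medians of all Hist genes that rest on them are also given with such a library left out. Medians and SDs of the Hist genes split by poly(A) end are given only with both.

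The variants were abundant, and their median SD between duplicates, 0.246 (log2), was near the 0.222 of all genes tested. Their sum was 1555.5 ± 82.73 TPM in scrambled total, 1539 ± 79.2 in knockdown total, 1647.5 ± 170.4 in scrambled long-tail and 1663 ± 297 in knockdown long-tail libraries (mean ± SD, n = 2). In knockdown long tails all 10 were higher in library 2 than in library 1, with sums of 1873 and 1453 TPM. The 57 Hist genes together came to 1239 ± 114.6, 1557.5 ± 389.6, 1391.5 ± 12.02 and 1311 ± 79.2 TPM in the same order. The Hist genes' part of histone TPM was lowest in knockdown long-tail library 2, at 40.1%, and highest in knockdown total library 2, at 55.3%, with 43.6% to 48.5% in the other 6 libraries.

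**Figure D1:**
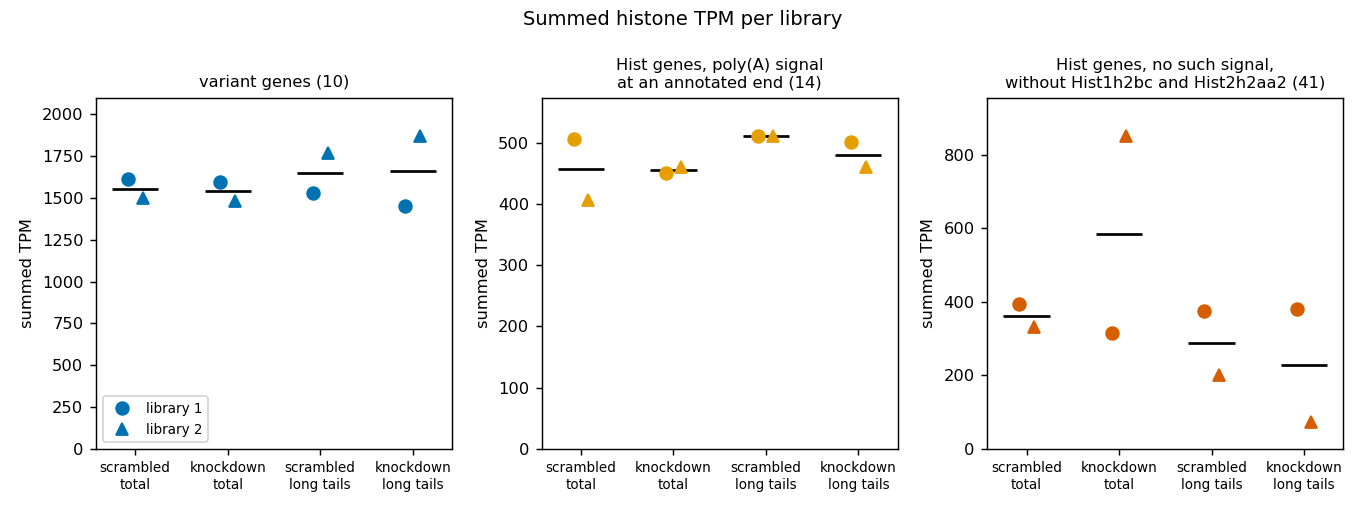
Summed TPM in each of the 8 libraries for the 10 variant genes, the 14 Hist genes with an annotated poly(A) end and 41 Hist genes without one; circles are library 1, triangles library 2 and bars the mean of the 2. The variants stay between 1453 and 1873 and the Hist genes with a poly(A) end between 407 and 512. The 41 others have their lowest sum, 74, in knockdown long-tail library 2 and their highest, 852, in knockdown total library 2. They leave out Hist1h2bc and Hist2h2aa2, which were set apart after their values had been seen. With these the sum of all 43 is 1373 in knockdown total library 2 and 795 in knockdown long-tail library 2. Its lowest value is then 751, in scrambled total library 2.

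The H3.3 genes led the variants. H3f3a, which together with H3f3b encodes H3.3, stood at 568 and 555 TPM in scrambled total, 557 and 537 in knockdown total, 540 and 643 in scrambled long-tail and 517 and 637 in knockdown long-tail libraries. The groups overlapped in every comparison: the knockdown difference was -0.04 on the log2(TPM + 1) scale (SE 0.154) in either fraction. H3f3b stood at 226 and 253, 266 and 284, 203 and 282, and 207 and 331 TPM in the same order. Its knockdown total libraries were both above the scrambled ones, by 0.20 (SE 0.266, limma Benjamini-Hochberg adjusted p = 1), and its long-tail libraries overlapped.

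Among the H2A variants, H2afz, which encodes the H2A.Z found at promoters, stood at 229 and 198 TPM in scrambled total, 195 and 187 in knockdown total, 230 and 242 in scrambled long-tail and 196 and 250 in knockdown long-tail libraries. Long tails were above total in both kinds of neuron without overlap, by 0.15 in scrambled and 0.21 in knockdown neurons (SE 0.151), and neither difference passed the test (limma adjusted p = 0.646 and 0.421). In total RNA it was lower after knockdown without overlap, with a difference of -0.16 (SE 0.151, limma adjusted p = 0.982). H2afv, the gene of the second H2A.Z, was less abundant, with 51 and 67, 49 and 55, 58 and 72, and 47 and 80 TPM. Its groups overlapped in all comparisons.

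H2afy encodes macroH2A1, a large H2A with an added macro domain that is known from silent chromatin. It stood at 131 and 130 TPM in scrambled total, 122 and 96 in knockdown total, 126 and 139 in scrambled long-tail and 106 and 124 in knockdown long-tail libraries. It was the variant that was lower after knockdown without overlap in both fractions, with a log2 difference of -0.27 in the total and -0.21 in the long-tail fraction (SE 0.153, limma adjusted p = 0.924 and 0.691), neither past the threshold. H2afy2, the gene of macroH2A2, was between 27 and 38 TPM in all libraries, with overlapping groups. H2afj was between 30 and 59 TPM, with its highest value in knockdown long-tail library 2.

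H2afx, the variant with both ends printed above, varied more: 121 and 58 TPM in scrambled total, 128 and 99 in knockdown total, 113 and 91 in scrambled long-tail and 130 and 132 in knockdown long-tail libraries. Its low value was in scrambled total library 2, and its within-group SD of 0.408 (log2) was second among variants to that of H1fx. The linker histone H1fx stood at 78 and 35, 64 and 36, 61 and 49, and 68 and 72 TPM, with library 2 of either total group low. H1f0, the linker histone of differentiated cells, was level, with 137 and 139, 141 and 125, 125 and 158, and 113 and 152 TPM. For both H2afx and H1fx the knockdown long-tail libraries lay above the scrambled long-tail ones, by 0.37 (SE 0.354) and 0.35 (SE 0.435), with limma adjusted p = 0.746 and 0.811.

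**Figure D2:**
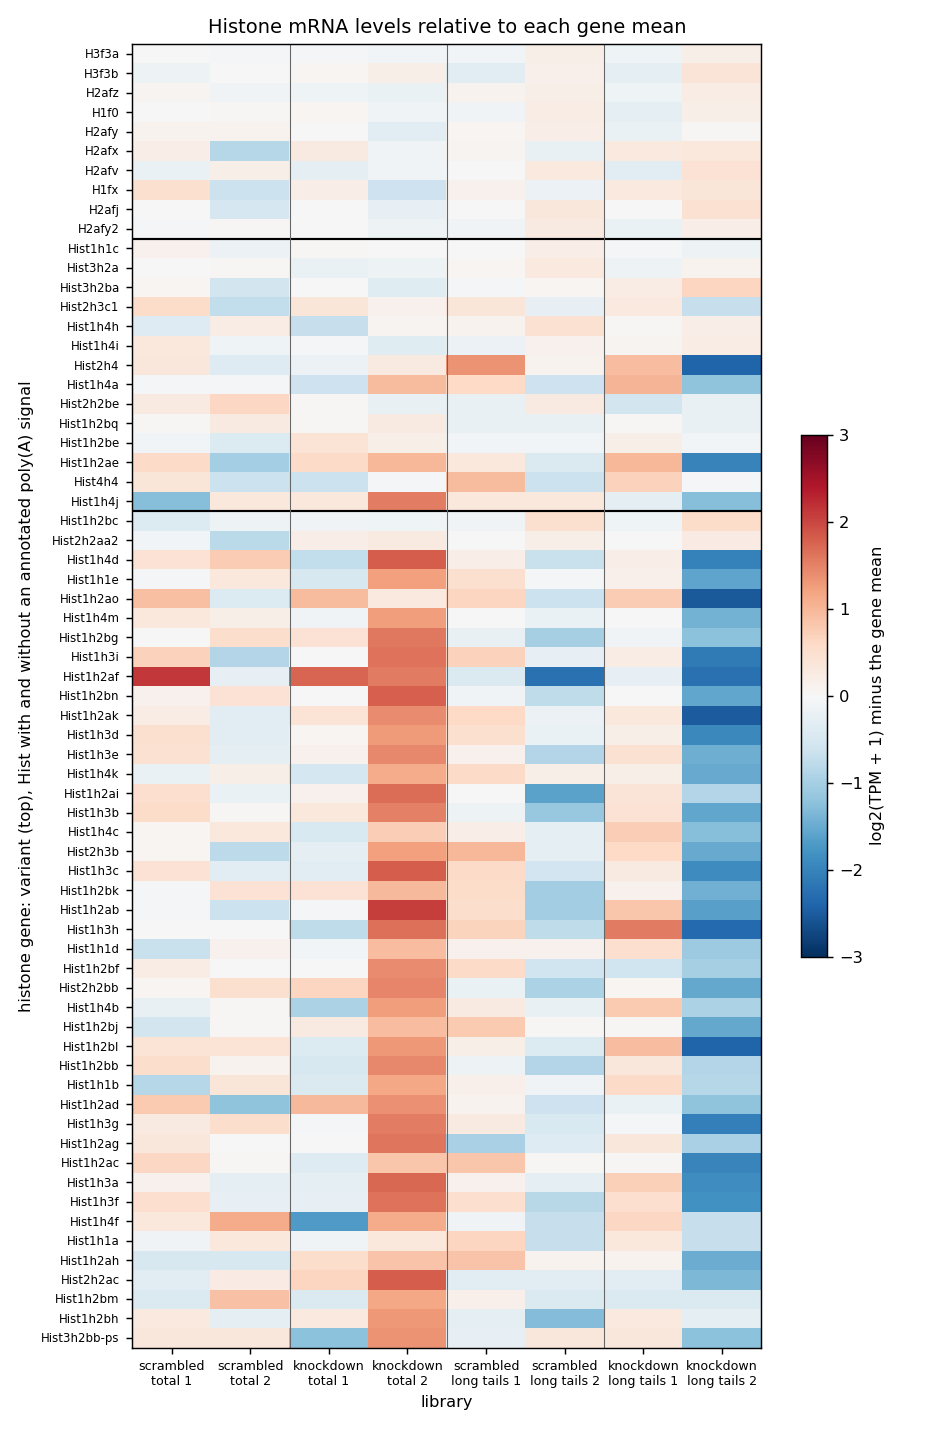
Level of each of the 67 histone genes in each library as log2(TPM + 1) minus the gene's mean over the 8 libraries, with variants at the top, Hist genes with an annotated poly(A) end below them and the other Hist genes at the bottom, each ordered by mean TPM. Most rows of the bottom block are high in knockdown total library 2 and low in knockdown long-tail library 2, which the variant rows do not show.

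The Hist genes with an annotated poly(A) end summed to between 407 and 512 TPM in every library, and several varied no more between duplicates than most variants. Hist1h1c, a linker histone gene, stood at 137 and 111 TPM in scrambled total, 128 and 127 in knockdown total, 125 and 143 in scrambled long-tail and 120 and 112 in knockdown long-tail libraries. Hist3h2a, an H2A gene, stood at 113 and 115, 99 and 102, 118 and 138, and 102 and 121 TPM. Their within-group SDs of 0.131 and 0.118 (log2) were below the median of all genes tested, 0.222.

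Further members with both ends behaved in more than 1 way. Hist3h2ba, an H2B gene, stood at 70 and 46 TPM in scrambled total, 67 and 52 in knockdown total, 65 and 71 in scrambled long-tail and 79 and 106 in knockdown long-tail libraries, with its highest value in knockdown long-tail library 2. The H4 genes Hist1h4h and Hist1h4i lay between 20 and 46 TPM and between 21 and 34 TPM. Hist2h3c1, an H3 gene, stood at 77 and 31, 68 and 58, 68 and 44, and 65 and 32 TPM, with library 2 below library 1 in all 4 groups. Hist2h4, an H4 gene, stood at 19 and 11, 13 and 18, 39 and 16, and 29 and 2 TPM, and so had its lowest value in knockdown long-tail library 2.

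The lower members of this class were Hist1h4a at 3 to 18 TPM, Hist2h2be at 3 to 8, Hist1h2bq at 4 to 6, Hist1h2be at 3 to 6, and Hist1h2ae, Hist4h4 and Hist1h4j at means of 6.0 TPM or less in every group. Of the 14 genes, 6 had a within-group SD over 0.5 (log2): Hist2h3c1, Hist2h4, Hist1h4a, Hist1h2ae, Hist4h4 and Hist1h4j. The median SD was 0.334. At values this low the deposited rounding to whole TPM limits what can be told.

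Of the 43 Hist genes without an annotated poly(A) end, 2 stood apart from the rest by level and by steadiness. Hist1h2bc, an H2B gene, was the most abundant Hist mRNA, at 285 and 339 TPM in scrambled total, 351 and 346 in knockdown total, 353 and 524 in scrambled long-tail and 344 and 550 in knockdown long-tail libraries. It alone made up 18.9% to 43.8% of the Hist sum. Hist2h2aa2, an H2A gene, stood at 136 and 82, 166 and 175, 143 and 164, and 143 and 171 TPM. Neither had its lowest value in knockdown long-tail library 2, and their SDs were 0.324 and 0.281. Hist2h2aa2 did have its highest value, 175 TPM, in knockdown total library 2, as most of the 43 did. Hist1h2bc had its highest, 550 TPM, in knockdown long-tail library 2. Every stretch of 50 bases in Hist2h2aa2 also occurred in another gene, so its level and steadiness cannot be assigned to this copy alone. Both genes were singled out after their values had been seen.

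The remaining 41 genes summed to 393 and 330 TPM in scrambled total, 315 and 852 in knockdown total, 376 and 200 in scrambled long-tail and 379 and 74 in knockdown long-tail libraries. In total RNA and in long tails, the knockdown duplicates differed from each other by more than the knockdown mean differed from the scrambled mean of that fraction (583.5 against 361.5 TPM and 226.5 against 288.0 TPM). Among all 43, 35 genes had their highest value in knockdown total library 2 and 29 their lowest in knockdown long-tail library 2, with 9 more tied for the lowest. Among the 14 with a poly(A) end the counts were 1 and 3, and among the 10 variants 0 and 0. Of the variants 5 had their highest value in knockdown long-tail library 2.

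All 5 histone families had members with this pattern. The linker H1 gene Hist1h1e stood at 19 and 25 TPM in scrambled total, 14 and 48 in knockdown total, 28 and 19 in scrambled long-tail and 22 and 6 in knockdown long-tail libraries. The H2A gene Hist1h2ao, whose short 3′ end is printed above, stood at 31 and 12, 32 and 20, 26 and 10, and 28 and 2 TPM. Library 2 was the lower one in all 4 groups there, so that Hist1h2ao was an exception in knockdown total. The H2B gene Hist1h2bg stood at 13 and 19, 18 and 41, 11 and 6, and 12 and 5 TPM, with every total library above every long-tail library of the same neurons. The H3 gene Hist1h3i stood at 20 and 6, 12 and 39, 20 and 10, and 14 and 2 TPM, with a within-group SD of 1.194. The H4 gene Hist1h4d, the most abundant of these 41 by its mean, stood at 48 and 61, 21 and 128, 41 and 22, and 41 and 8 TPM. In all 11 Hist genes of the H3 family, with or without a poly(A) end, knockdown long-tail library 2 was below library 1. Knockdown total library 2 was above library 1 in 10 of them. The exception was Hist2h3c1, the H3 gene of these with an annotated poly(A) end.

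Measured against each gene's own mean, the median of the 43 genes was 1.34 (log2) in knockdown total library 2 and -1.48 in knockdown long-tail library 2, and between -0.44 and 0.28 in the other 6 libraries. The median of the 14 genes with a poly(A) end stayed between -0.19 and 0.13, and that of the variants between -0.16 and 0.27. Over all 13681 genes it lay between -0.16 and 0.16. Within groups, the median SD was 0.887 for the 43 genes, 0.334 for the 14 and 0.246 for the variants. The classes also differed in sequence shared with other genes, with medians of 54.1%, 26.8% and 4.2% of stretches of 50 bases in the same order. The part of shared sequence in these SDs was not tested. Among genes of like level, between 10 and 50 TPM, the median SD was 0.933 for 13 of the 43 genes, 0.377 for 3 of the 14 and 0.211 for 5875 genes of any kind.

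**Figure D3:**
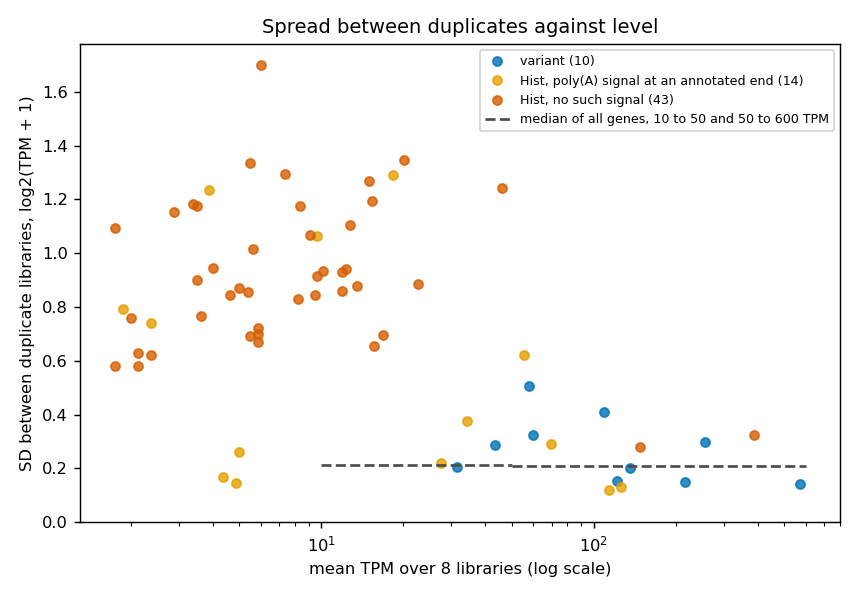
Within-group SD of log2(TPM + 1) between duplicate libraries against mean TPM (log axis) for each of the 67 histone genes, with dashed lines at the median of all genes from 10 to 50 and from 50 to 600 TPM. Hist genes without an annotated poly(A) end mostly lie above 0.5, while variants lie between 0.14 and 0.506.

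RNAs that mostly lack a poly(A) tail varied across the same libraries. Of 133 such RNAs listed, 119 had an entry, 86 of these were at 0 in every library and 14 were tested. Rn45s stood at 68551 and 77992 TPM in scrambled total, 60685 and 142877 in knockdown total, 172203 and 74616 in scrambled long-tail and 185551 and 28977 in knockdown long-tail libraries. Rmrp, the RNA of RNase MRP, stood at 584 and 377, 344 and 625, 276 and 216, and 393 and 98 TPM, highest and lowest in the same 2 libraries as most Hist genes. Rpph1, the RNA of RNase P, was also lowest in knockdown long-tail library 2, at 196 TPM, but was highest in scrambled total library 1, at 520 TPM. Of the 14 RNAs, 1 was highest in knockdown total library 2 and 7 were lowest in knockdown long-tail library 2, ties not counted. Their median relative to each gene's mean was 0.54 (log2) in knockdown total library 2 and -1.59 in knockdown long-tail library 2. It was highest in scrambled total library 1, at 0.93. Without Rn45s the list summed to 854 to 1252 TPM in scrambled total, 774 to 1172 in knockdown total, 659 to 712 in scrambled long-tail and 307 to 909 in knockdown long-tail libraries. The part of tailless RNA in the histone values was not tested.

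Markers of dividing cells, in which replication-dependent histones are made, were read in the same libraries. The 21 tested summed to 386 and 397 TPM in scrambled total, 364 and 389 in knockdown total, 328 and 402 in scrambled long-tail and 299 and 384 in knockdown long-tail libraries. Their median relative to each gene's mean was 0.16 (log2) in knockdown total library 2 and -0.02 in knockdown long-tail library 2. Mki67 was the one marker with both extremes in those libraries and no tie, at 14 and 21, 14 and 24, 9 and 11, and 9 and 5 TPM. Top2a was also highest in knockdown total library 2, at 28 TPM, and its lowest value, 14, was tied between the knockdown long-tail libraries. Of the 21 markers, 3 were highest in knockdown total library 2, the first of these libraries, and 1 was lowest in the second, ties not counted. Pcna, the clamp of DNA polymerase, stood at 86 TPM in the first and 104 in the second. None of the 21 was at 0 in every library, and the part of dividing cells in the histone values was not tested.

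**Figure D4:**
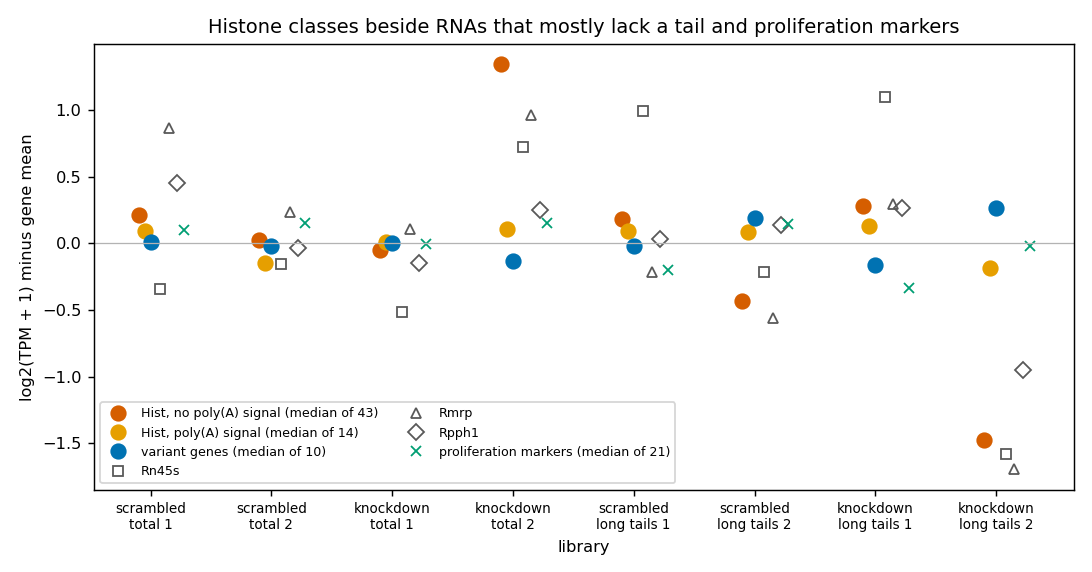
Level in each library relative to the mean over libraries, log2(TPM + 1), as medians for the 3 histone classes and the 21 proliferation markers and as single values for Rn45s, Rmrp and Rpph1. In knockdown total library 2 the 43 Hist genes are at 1.34 and the markers at 0.16. In knockdown long-tail library 2 they are at -1.48 and -0.02. Rn45s, Rmrp and Rpph1 were named after their values had been seen, and the median of their list is not drawn.

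The first comparison asked which histone mRNAs differed after Cnot7 knockdown in total poly(A) RNA. None of the 67 histone genes was called by limma (Benjamini-Hochberg adjusted p under 0.05), as was none of all 13681 genes (0%). Cnot7, the targeted mRNA, was itself among the genes not called, so the lack of a call does not show the lack of a difference. Of the Hist genes 46 were higher and 10 lower after knockdown with a median log2 difference of 0.50, where 33.1% of all genes were higher, 60.9% lower and the median was -0.07. Of the variants 3 were higher and 7 lower, with a median of -0.06. The Hist count turned on 1 library: without knockdown total library 2, 25 of 57 were higher and the median was -0.11. Markers of glia differed between the same groups: all 10 oligodendrocyte-lineage markers were lower after knockdown in either fraction (medians -0.51 and -0.45, none called), with sums of 1850 and 1746 TPM in scrambled total, 1163 and 1182 in knockdown total, 1489 and 1928 in scrambled long-tail and 992 and 1281 in knockdown long-tail libraries. Of 8 astrocyte markers 7 were lower in total RNA and 6 in long tails (medians -0.25 and -0.34, none called), with sums of 5790 and 4548, 5701 and 3660, 4488 and 3908, and 4359 and 3125 TPM. Their part in the histone values was not tested.

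The groups did not overlap for 9 Hist genes that were higher after knockdown in total RNA (8.68% of all genes) and 2 that were lower (20.1% of all genes), and for 1 and 2 variants. At an unadjusted p under 0.05 there were 3 higher Hist genes, where 2.05% of all genes passed, and 0 lower histone genes, where 4.30% did. Hist1h2be, with 4 and 3 TPM in scrambled and 6 and 5 in knockdown total libraries, was higher by 0.54 (SE 0.167, limma adjusted p = 0.659). Hist2h2aa2 was higher by 0.69 (SE 0.251, limma adjusted p = 0.739), and Hist2h2ac, at 1 and 2 against 3 and 8 TPM, by 1.29 (SE 0.496, limma adjusted p = 0.771). Among Hist genes in the lower direction the smallest p belonged to Hist2h2be (-0.54), Hist1h4i (-0.31) and Hist3h2a (-0.18).

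In long tails, the knockdown comparison again gave no call among the histone genes (0% of all genes), and 0 at an unadjusted p under 0.05, where 2.25% of all genes were higher and 6.47% lower. Hist genes were higher in 14 cases and lower in 43, with a median of -0.34, where 34.6% of all genes were higher, 64.5% lower and the median was -0.10. After quantile normalization the Hist median was -0.06. The variants, 4 higher and 6 lower, had a median of -0.06. Without knockdown long-tail library 2, 16 Hist genes were lower and the median was 0.29, and without knockdown long-tail library 1 it was -1.09.

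Groups that did not overlap in that comparison were few: 1 Hist gene and 2 variants higher (8.91% of all genes) and 2 Hist genes and 1 variant lower (17.1% of all genes). Hist3h2ba was the Hist gene that was higher, by 0.43 (SE 0.259, limma adjusted p = 0.659). Hist1h1c was among the lower ones, with a difference of -0.20 (SE 0.138, limma adjusted p = 0.668). The smallest p in the lower direction was that of Hist1h2ah, at 4 and 2 TPM in scrambled and 2 and 0 in knockdown long-tail libraries, with a difference of -1.16 (limma adjusted p = 0.602).

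**Figure D5:**
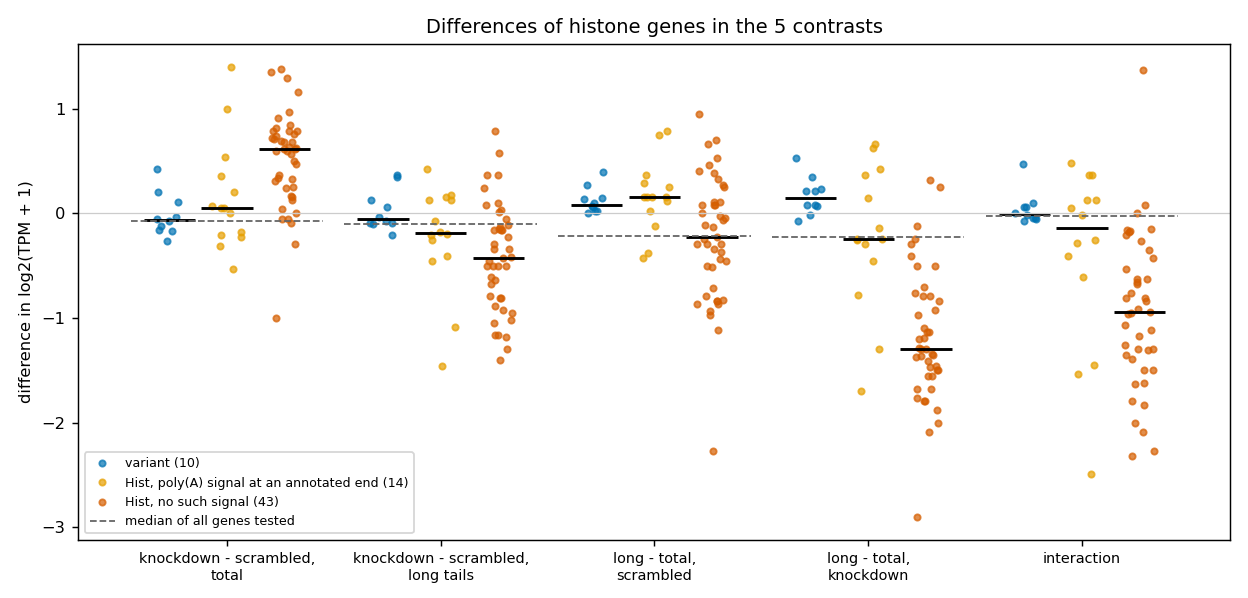
Differences in log2(TPM + 1) of the 67 histone genes in the 5 comparisons, by class, with a black bar at each class median and a dashed line at the median of all genes tested. The 43 Hist genes without an annotated poly(A) end have medians of 0.61, -0.43, -0.22, -1.29 and -0.94 from left to right, and the variants of -0.06, -0.06, 0.08, 0.15 and -0.01.

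Next, long tails were compared with total RNA. TPM is a share of a library, so a difference is one of shares, not of tail length. In scrambled neurons all 10 variants had a larger share of the long-tail than of the total libraries, with a median of 0.08, where 21.1% of all genes were higher and the median was -0.22. None was called (0% of all genes), 0 passed an unadjusted p under 0.05 (0.263% of all genes higher and 12.9% lower), and without scrambled long-tail library 2 the variants' count was 4 of 10. Quantile normalization moved the median of all genes to -0.02 and that of the variants to 0.25. The Hist genes were 26 higher and 30 lower with a median of -0.05, which was 0.15 after quantile normalization and 0.03 with Rn45s left out.

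The Hist genes with a poly(A) end were mostly on the variants' side there, 11 higher and 3 lower with a median of 0.16, and those without were 15 higher and 27 lower with a median of -0.22, which is the median of all genes. Groups did not overlap for 4 Hist genes and 1 variant that were higher (4.69% of all genes) and for 12 Hist genes that were lower (39.6%). Hist1h2af, an H2A gene, stood at 40 and 7 TPM in scrambled total and 6 and 1 in scrambled long-tail libraries, a difference of -2.28 (SE 1.07, limma adjusted p = 0.392). Hist1h2bc was higher by 0.47 (SE 0.289, limma adjusted p = 0.468) and Hist2h2aa2 by 0.53 (SE 0.251, limma adjusted p = 0.392).

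In knockdown neurons most Hist genes had a smaller share of the long-tail than of the total libraries. Of the Hist genes 50 were lower in long tails than in total RNA and 7 higher, with a median of -1.13, where 70.9% of all genes were lower and the median was -0.22. The variants were 8 higher and 2 lower, with a median of 0.15. Without knockdown long-tail library 2, 4 variants were higher and their median was -0.055. With all 8 libraries, none of the 67 was called (0% of all genes). Both libraries that stood apart enter this comparison: the Hist median was -0.35 without knockdown total library 2 and -0.19 without knockdown long-tail library 2. Without knockdown long-tail library 1 it was -1.98, and 3 genes passed limma's adjusted threshold: Hist1h2ak at -3.41 (adjusted p = 0.0327), Hist2h2bb at -2.59 (0.0433) and Hist1h2ah at -2.16 (0.028). In that fit, which called 2104 of 13717 genes (15.3%) and 3 of 67 histone genes (4.5%), the remaining library was assumed to vary like the other groups.

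At an unadjusted p under 0.05, 8 Hist genes were lower in knockdown long tails, where 25.1% of all genes were, and 0 histone genes were higher, where 0.921% were. Groups did not overlap for 2 Hist genes and 3 variants that were higher (4.04% of all genes) and 12 Hist genes that were lower (40.0%). Hist2h2ac, at 3 and 8 TPM in total and 1 and 0 in long-tail libraries, differed by -2.09 (SE 0.496, limma adjusted p = 0.14). Hist2h2bb, at 8 and 15 against 5 and 1 TPM, differed by -1.79 (SE 0.598, limma adjusted p = 0.151), and Hist1h2bg by -1.68 (SE 0.562, limma adjusted p = 0.151). On the other side Hist3h2ba was higher by 0.62 (SE 0.259, limma adjusted p = 0.202).

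The interaction asked whether the knockdown difference in long tails differed from that in total RNA, and uses all 8 libraries, which it shares with the other comparisons. No histone gene was called (0% of all genes), and every histone gene had an adjusted p of 1. Of the Hist genes 48 were below 0 and 8 above, with a median of -0.81, where 55.4% of all genes were below 0 with a median of -0.02. The variants were 6 below and 4 above, with a median of -0.01. Without knockdown long-tail library 2 the Hist median was -0.08. At an unadjusted p under 0.05, 3 Hist genes were below 0 (0.482% of all genes), among them Hist2h2ac at -1.79.

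Genes that make, destroy or deliver histones were followed from 3 lists. Of histone 3′ end processing, 18 genes had an entry and 17 were tested; of histone mRNA decay, 17 had an entry and 17 were tested; of histone chaperones and deposition factors, 30 and 30. None was called in any of the 5 comparisons with all 8 libraries. After knockdown in total RNA, 8 and 9 end-processing genes were higher and lower, 5 and 12 decay genes and 14 and 16 chaperones, with medians of -0.003, -0.07 and -0.07, close to the -0.07 of all genes. In long tails the counts were 7 and 10, 7 and 10, and 11 and 19, with medians of -0.10, -0.12 and -0.05.

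Slbp, the stem-loop binding protein, stood at 16 and 23 TPM in scrambled total, 15 and 20 in knockdown total, 17 and 24 in scrambled long-tail and 10 and 22 in knockdown long-tail libraries, with overlapping groups. Lsm11, a subunit of the U7 particle that pairs with histone pre-mRNA, stood at 62 and 55, 73 and 81, 38 and 36, and 51 and 42 TPM. It was higher after knockdown by 0.39 in the total and 0.32 in the long-tail fraction (SE 0.138, limma adjusted p = 0.717 and 0.589), without overlap and without passing. Casp8ap2, which is needed for histone gene expression, stood at 4 and 5, 4 and 6, 3 and 3, and 2 and 1 TPM, and differed by -1.27 (SE 0.254, limma adjusted p = 0.14) between long tails and total RNA of knockdown neurons.

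Among the chaperones, the kinase Tlk1, which acts on the chaperone Asf1, stood at 35 and 34 TPM in scrambled total and 51 and 50 in knockdown total libraries, a difference of 0.54 (SE 0.155, limma adjusted p = 0.627). In long tails Tlk1 stood at 23 and 27 TPM in scrambled and 31 and 24 in knockdown libraries, with overlapping groups. Ssrp1, a subunit of the FACT complex that moves H2A and H2B, stood at 72 and 89 TPM in scrambled total and 49 and 51 in knockdown total libraries, and at 58 and 78 against 34 and 54 in long tails. The differences were -0.67 and -0.64 (SE 0.263, limma adjusted p = 0.777 and 0.58). Of the decay list, Zcchc11, a uridylyl transferase, differed by -0.82 (SE 0.189, limma adjusted p = 0.14) between long tails and total RNA of knockdown neurons. Dcp2, the decapping enzyme, differed by -0.65 and -0.77 (SE 0.306, limma adjusted p = 0.863 and 0.563) after knockdown in total RNA and long tails. Without knockdown long-tail library 1, 10 of the 64 list genes tested (15.6%) passed limma's adjusted threshold for long tails against total RNA of knockdown neurons, where 15.3% of all genes did, a share near the background. Among them were Lsm11 (-0.86), Casp8ap2 (-1.57) and Tlk1 (-1.04), lower in long tails, and of the 10 only Znhit1 was higher (0.78). With all 8 libraries Znhit1, of the chaperone list, was higher by 0.54 (SE 0.191, limma adjusted p = 0.16). Mblac1, of the end-processing list, was higher by 0.60 (SE 0.205, limma adjusted p = 0.156). In that fit 3 end-processing, 8 decay and 3 chaperone genes were higher, and 14, 9 and 27 lower.

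The authors' deposited tables of genes past their threshold held 104 genes for total RNA and 97 for long tails. No histone gene and no gene of the 3 lists was in either. In the authors' deposited tables Cnot7 had a log2 difference of -1.12 (adjusted p = 3.96e-05) in total RNA and -1.18 (adjusted p = 1.02e-05) in long tails, while limma on the TPM gave -1.42 (adjusted p = 0.153) and -1.48 (adjusted p = 0.173).

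Finally, 13 histone entries did not reach the mean of 1 TPM. Of these 10 were at 0 in every library: H1foo, H1fnt, H2afb1, H2afb2, H2afb3, Hist1h1t, Hist1h2aa, Hist1h2ba, Hist1h4n and Hist2h2ab, among them histones known from germ cells. The nearest below the minimum were Hist1h2bp at a mean of 0.875 TPM, Hist1h2an at 0.75 and H2afy3 at 0.25. The nearest above were Hist1h2bh and the pseudogene Hist3h2bb-ps, both at 1.75.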

How the data were processed

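CASAVA, TopHat2, RSEM, DESeq, DESeq2 and the mm10 build are named per the submitters' processing notes, with neither versions nor roles given in the sources used here. TPM values, which the authors rounded to whole numbers and deposited for 23845 genes, were treated as a score. They sum to 999689 to 999809 per library. The read depth is unknown, so there are no counting intervals. Per the file headers, the authors' result tables (1 per fraction) hold log2 fold changes, p-values and adjusted p-values; their sign was turned to knockdown minus scrambled.

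A pseudocount of 1 was added to TPM before taking log2, and 13681 genes averaging 1 TPM or more were kept. One limma model (version 3.58.1, R 4.3.3; eBayes with trend) of 4 group means was fitted to all 8 libraries. The 5 contrasts were tested two-sided, with Benjamini-Hochberg adjustment over all genes and calls at an adjusted p under 0.05. The scripts were tested on simulated data. Labels do not say that duplicates came from separate cultures, so p-values measure only the spread between these samples. With 2 against 2, an exact permutation test cannot go below 0.333, and none was run.

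Named genes were all variants, the 10 most abundant Hist genes, the leading gene of each family, entries beside the TPM minimum and Slbp. Planned too were Hist genes with the 3 smallest p per direction and comparison and list genes with the 2 smallest. Of these only some are named. Hist1h2ao, Hist1h3i, Hist2h4, Hist1h2ak, Mki67, Pcna, Rn45s, Rmrp and Rpph1 were named after their values were seen. Members and lists were chosen with earlier results of these data known. Alternatives were quantile normalization, leaving out Rn45s, other pseudocounts (0.5, 5), no minimum or 5 TPM, no trend, a replicate block, only the groups compared, H2afx left out, and each library left out.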

Additional observations from a re-analysis of the deposited data

Results flagged for a closer look

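The summed TPM of the 43 Hist genes without an annotated poly(A) end was lower in long tails of knockdown than of scrambled neurons, by -49.5 TPM (830.5 against 880), and higher in total RNA (1102.5 against 782.5). It is given here because the sign of the knockdown difference was opposite in the 2 fractions. With knockdown total library 2 left out, the sum in knockdown total RNA was 832 against 782.5, and with knockdown long-tail library 2 left out, that in knockdown long tails was 866 against 880. The difference was not tested.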

How the results depend on the processing

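No histone gene was called under any setting tried that kept both libraries of each group compared. With each library left out in turn, 0 to 3 were called for long tails minus total RNA in knockdown neurons and 0 in the other comparisons. The ranges over these 8 fits were as follows. After knockdown in total RNA, the Hist median ran from -0.11 to 1.13 with 25 to 54 genes higher, and the variant median from -0.11 to 0.02 with 4 to 8 lower. In long tails the Hist median ran from -1.09 to 0.29 with 16 to 51 lower, and the variant median from -0.24 to 0.21 with 1 to 8 lower. For long tails minus total in scrambled neurons the Hist median ran from -0.33 to 0.21 with 20 to 40 lower, and the variant median from -0.03 to 0.20 with 4 to 10 higher. In knockdown neurons they ran from -1.98 to -0.19 with 37 to 52 lower, and from -0.055 to 0.27 with 4 to 10 higher. For the interaction they ran from -1.65 to -0.079 with 32 to 53 lower, and from -0.19 to 0.19 with 1 to 9 lower. Fewer libraries remain in these fits, and the cause was not tested. The counts of direction with a library left out were added after seeing the data.

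With Rn45s left out and libraries rescaled, the Hist sum was 1592.2 TPM in scrambled and 1485.9 in knockdown long tails, and the variant sum 1678.7 in scrambled total, 1714.6 in knockdown total and 1878.1 in scrambled long tails; the rescaling itself raises these sums. At a minimum of 5 TPM, which leaves fewer genes, the Hist sum in scrambled long tails was 1347.0. Without H2afx the variant sum was 1466.0 in scrambled and 1425.5 in knockdown total RNA.

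The labels do not say that equal replicate numbers mark a shared culture, and deviations of number 1 libraries correlated across genes at -0.108 to 0.605. With the replicate block, 0 histone genes were called in each of the 5 comparisons (with 1 library of each number per group, the block cannot move the estimates). Of the values of single histone and list genes under other settings, 10970 stayed short of the threshold and 13 passed it, all 13 in long tails minus total RNA of knockdown neurons without knockdown long-tail library 1, a fit that called 2104 of 13717 genes (15.3%). Without a minimum, 43 genes of any kind were called after knockdown in total RNA and 54 in long tails, and with only the groups compared 50 and 83, against 0 and 0 with the settings reported. Depth is unknown, rounding to whole TPM limits genes near 1 TPM, and 2 libraries a group limit every comparison.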
